A study of Mus musculus with 8 samples.

Results

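Dual-specificity MAPK phosphatases remove phosphate from both the threonine and the tyrosine of an activated MAP kinase, and so end the signals of ERK, p38 and JNK. Several of their genes are themselves switched on by the kinases they oppose, which makes them a negative feedback. In macrophages, DUSP1 is the best known of them, and it limits cytokine production after stimulation through Toll-like receptors. The 10 genes described here are Dusp1, Dusp2, Dusp3, Dusp4, Dusp5, Dusp6, Dusp7, Dusp10, Dusp16 and Dusp22, found by symbol among the 54532 genes of the count table. They were chosen as a family around Dusp1, which had been selected on its measured difference between the genotypes in these libraries, so their values in this comparison are given as a description without a p-value.

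The RNA came from bone marrow-derived macrophages (BMDMs), which are macrophages grown in culture from marrow cells with macrophage colony-stimulating factor, after 6 days of differentiation and with no treatment. There were 4 libraries from WT and 4 from Gsdmd-/- mice, the latter lacking gasdermin D, the protein that forms the pore of pyroptosis. The methods give female mice of 6 to 8 weeks as the source of the marrow, without distinguishing the genotypes. The WT mice (C57BL/6J) were purchased, whereas the Gsdmd-/- line was a gift kept in the animal facility of the study, so that genotype and source of the mice cannot be told apart. It is not stated in the labels or methods if separate mice were used for the libraries of a genotype, and the spread between libraries may therefore be technical.

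The libraries held between 14935114 and 16794810 counts. Levels are given in CPM, which are counts scaled to a common library size, after TMM scaling, and a count of 0 allows up to 3 counts, or 0.177 to 0.199 CPM, which covers counting error only. Gsdmd itself had 75.3 ± 14.1 CPM (SD, n = 4) in WT against 16.2 ± 1.56 CPM (SD, n = 4) in Gsdmd-/- libraries. The 10 macrophage markers looked at all had enough counts to be tested, with a summed level of 15473 to 23675 CPM in WT against 19539 to 23531 CPM in Gsdmd-/- libraries. The neutrophil markers Ly6g and Retnlg, the T and NK cell markers Cd3d, Ncr1 and Trbc1, and the erythroid markers Hba-a1 and Hbb-bs had no count in any library. Other markers of these lists were present in every library at low counts, among them S100a8 (70 to 109 counts), Cxcr2 (8 to 21), Cd4 (5 to 41) and Pf4 (126 to 461). The 8 endothelial markers summed to 142 to 267 CPM in WT against 133 to 212 CPM in Gsdmd-/- libraries, mostly Vwf (1333 to 3892 counts) and Kdr (345 to 1316). Of the B cell markers, Ighm had 147 and 143 counts in WT 2 and WT 3 against 7 to 26 in the other libraries. The summed level of 8 dendritic cell markers was 126 to 137 CPM in WT against 114 to 120 CPM in Gsdmd-/- libraries, without overlap. Most of this sum was Irf8, with means of 95.1 CPM in WT and 97.6 CPM in Gsdmd-/- and overlapping libraries. Clec9a also overlapped, with 17.0, 49.1, 45.3 and 17.6 CPM in WT 1 to 4 against 14.5 to 18.3 CPM in Gsdmd-/-. The sums of the other marker lists overlapped, and the part of any other cell in the results was not tested. On the first principal component, which held 43.6% of the variance, WT 2 (45.4) and WT 3 (38.8) stood apart from the other 6 libraries (-25.9 to -7.19), and values without these libraries are given beside the results that rest on them.

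Of the 10 phosphatase genes, Dusp1 had by far the largest difference between the genotypes, and its level in Gsdmd-/- macrophages was 2.28 times that in WT. The other 9 differed by at most 0.64 on the log2 scale. Dusp7, an ERK phosphatase, was slightly higher in every Gsdmd-/- library than in every WT library, and Dusp10, a p38 and JNK phosphatase at a very low level, was lower on average with overlapping libraries. All 10 genes had enough counts to be tested. With edgeR's quasi-likelihood test, 1 of the 10 (Dusp1) had a Benjamini-Hochberg adjusted p under 0.05, where 0.349% of all 12911 genes tested did. At an unadjusted p under 0.05 with a log2 fold change of 0.5 or more in either direction, the cutoff used in the study, 2 of the 10 were counted, Dusp1 higher and Dusp10 lower, against 4.83% of all genes. The libraries of the genotypes did not overlap for 2 of the 10, Dusp1 and Dusp7, against 7.60% of all genes. Since these genes were chosen with this contrast known, nothing is read from these counts. Log2 fold changes were above 0 for 6 and below 0 for 4 of the genes, with a median of 0.05, beside -0.0068 over all genes tested, of which 48.5% lay above 0.

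**Figure D1:**
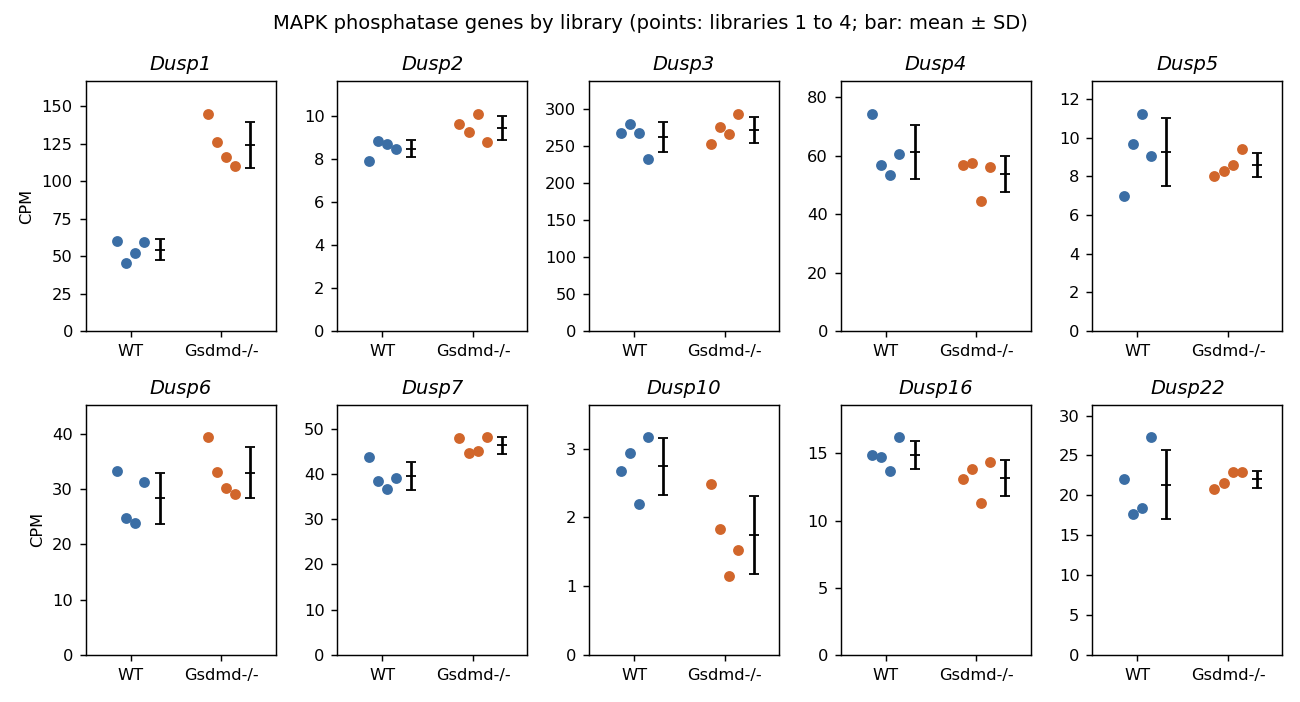
CPM (linear axis from 0, a separate scale for each gene) of the 10 phosphatase genes in 4 WT (blue) and 4 Gsdmd-/- (orange) libraries, plotted from library 1 on the left to 4 on the right, with the mean ± SD as a black bar. For Dusp1 the Gsdmd-/- libraries sit between 110 and 145 CPM, above all WT libraries (45.7 to 60.4), whereas the groups overlap for every other gene but Dusp7.

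The inducible nuclear phosphatases are described first. Dusp1 (ENSMUSG00000024190, GRCm38, chromosome 17 from 26505590 to 26562128, minus strand) encodes the enzyme that dephosphorylates p38 and JNK, and also ERK, in the nucleus. Reads counted on it numbered 992, 748, 857 and 979 in WT (libraries 1 to 4, the order used throughout) against 2451, 2133, 1834 and 1663 in Gsdmd-/-. This corresponded to 60.4, 45.7, 52.3 and 59.6 CPM in WT and to 145, 126, 116 and 110 CPM in Gsdmd-/-. The lowest Gsdmd-/- library therefore lay well above the highest WT library. The mean level was 54.5 ± 6.89 CPM (SD, n = 4) in WT against 124.5 ± 15.3 CPM (SD, n = 4) in Gsdmd-/- macrophages. The log2 fold change was 1.19 (standard error 0.119, 95% interval 0.93 to 1.46), and ranked 36 from the top among the 12911 genes. Without WT 2 and WT 3 it was 1.05 (standard error 0.127).

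Annotated exons of Dusp1 share 11 of 3311 bases (0.332%) with Ergic1, a gene of the opposite strand that encodes a protein of the early secretory pathway. The library kit does not mark the strand, so reads from these bases cannot be assigned to either gene. Ergic1 itself had 149 ± 13.2 CPM in WT against 152.8 ± 8.86 CPM in Gsdmd-/- macrophages (SD, n = 4), with overlapping libraries. Within 1000000 bases on either side of Dusp1, 46 other genes were tested and 0 had an adjusted p under 0.05 with edgeR's quasi-likelihood test (0.349% of all genes), while 8 had an unadjusted p under 0.05, where 12.0% of all genes did. Limma voom, the exact test of edgeR and DESeq2 also called 0 of the 46.

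Dusp2 is an inducible phosphatase of immune cells. It had 7.91, 8.80, 8.67 and 8.46 CPM in WT against 9.60, 9.23, 10.1 and 8.76 CPM in Gsdmd-/- libraries. The highest WT library lay just above the lowest Gsdmd-/- library, and the log2 fold change was 0.15 (standard error 0.111, 95% interval -0.09 to 0.40).

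Dusp4 encodes a nuclear phosphatase of ERK and JNK that is closely related to DUSP1. Its levels were 74.3, 56.8, 53.3 and 60.6 CPM in WT against 56.6, 57.5, 44.3 and 55.9 CPM in Gsdmd-/- libraries. WT 1 was high and Gsdmd-/- 3 was low, and the rest lay close together in both genotypes. The mean was 61.3 ± 9.20 CPM in WT against 53.6 ± 6.20 CPM in Gsdmd-/- (SD, n = 4), a log2 fold change of -0.19 (standard error 0.124), which was -0.34 without WT 2 and WT 3, -0.09 without WT 1 and -0.11 without Gsdmd-/- 3. The sign was thus opposite to that of Dusp1 in each of these fits.

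Dusp5 encodes a nuclear phosphatase that acts on ERK alone. It was at 6.999, 9.65, 11.2 and 9.07 CPM in WT and at 7.997, 8.28, 8.56 and 9.42 CPM in Gsdmd-/- libraries. All Gsdmd-/- values lay inside the WT range. An antisense RNA annotated over exons of Dusp5 was not analysed here, and its reads, if any, could not be told from those of Dusp5. The log2 fold change was -0.11 (standard error 0.154), and it turned to 0.09 without WT 2 and WT 3. It was -0.22 without WT 1 and -0.0019 without WT 3 alone.

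The upstream sequences of Dusp1, Dusp5 and Dusp6 are shown because these genes are counted as inducible by MAP kinase signals and because Dusp1 had the largest difference of them here. Each is the 250 bases before the RefSeq gene start, on the strand of the gene and from 5′ to 3′ (RefSeq, GRCm38.p6). Capitals mark the CArG box, which serum response factor binds, and the full cAMP response element (CRE) TGACGTCA, or its core TGACG on either strand, which CREB and ATF proteins bind. The windows are chr17:26508473-26508722 (minus strand) for Dusp1, chr19:53528895-53529144 (plus strand) for Dusp5 and chr10:99262981-99263230 (plus strand) for Dusp6.
Dusp1: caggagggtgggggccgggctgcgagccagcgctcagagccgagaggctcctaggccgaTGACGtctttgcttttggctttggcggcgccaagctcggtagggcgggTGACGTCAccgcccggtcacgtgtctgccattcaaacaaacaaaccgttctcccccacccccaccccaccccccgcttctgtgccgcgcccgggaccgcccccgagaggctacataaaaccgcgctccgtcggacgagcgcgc
Dusp5: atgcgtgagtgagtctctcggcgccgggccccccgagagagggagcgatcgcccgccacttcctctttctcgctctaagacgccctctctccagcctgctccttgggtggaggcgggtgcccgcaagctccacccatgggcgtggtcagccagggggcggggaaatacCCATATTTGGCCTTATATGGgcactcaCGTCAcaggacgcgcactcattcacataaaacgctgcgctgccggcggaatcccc
Dusp6: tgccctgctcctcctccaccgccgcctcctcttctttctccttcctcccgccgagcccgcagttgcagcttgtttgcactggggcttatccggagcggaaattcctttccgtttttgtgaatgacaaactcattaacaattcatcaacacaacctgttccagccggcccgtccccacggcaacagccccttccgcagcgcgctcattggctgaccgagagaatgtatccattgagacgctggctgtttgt

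Of the 10 genes 9 were found in the RefSeq promoter table. The full CRE lay 143 to 136 bases before the start of Dusp1, and no other member's window held it, while 1.55% of all 32851 RefSeq promoter windows of this length did, on either strand. The core TGACG, which is part of the full CRE, was found upstream of Dusp1, Dusp5 and Dusp16, and in 17.8% of all windows. Dusp5 held a pair of adjoining CArG boxes 82 to 63 bases before its start, and 1.47% of all windows held at least 1. In the window of Dusp6 no letters of these motifs were found. Of the other motifs searched on both strands, the EGR motif GCGNGGGCG was found upstream of Dusp2, Dusp16 and Dusp22 (4.70% of all windows), and the NF-kB motif upstream of Dusp22 (3.90%). The GC box GGGCGG, which can overlap the EGR motif, lay in 7 of the 9 windows (32.7% of all). The AP-1 motif TGANTCA (6.75%), the TATA letters TATAAA (12.4%) and the full glucocorticoid response element (0.00913%) were in none of them. Dusp4 was not in the promoter table, and a match of letters does not show that a factor binds. Of 26 immediate-early genes, 20 were looked up in the same table, and 3 of these (15%, Egr2, Srf and Zfp36) held a CArG box, 1 (Btg2) held the full CRE and 13 (65%) held the core TGACG. Promoters of 1 chromosome, which holds Egr1, were left out of this lookup, so these shares do not cover Egr1.

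**Figure D2:**
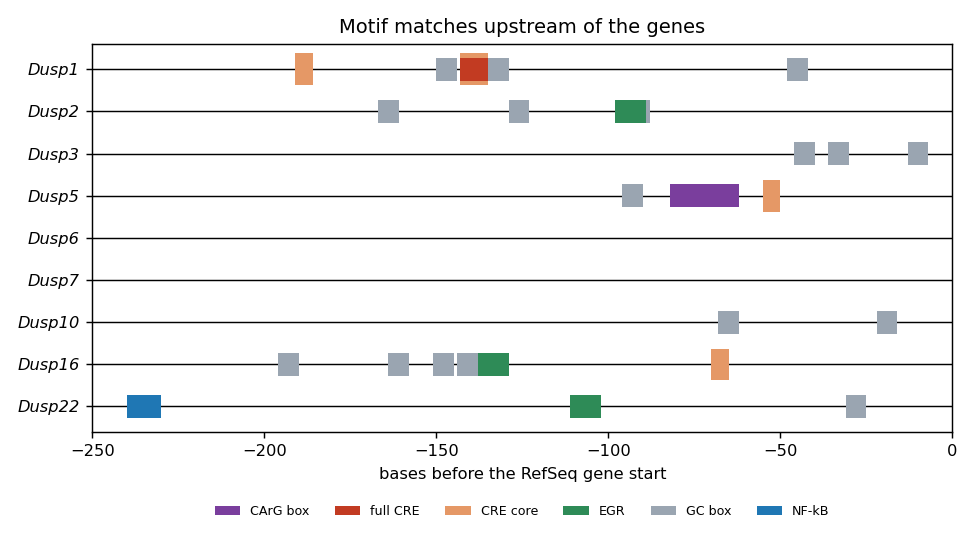
Position of motif matches, in bases before the RefSeq gene start (0 on the right), in the upstream windows of 9 phosphatase genes, 1 line per gene. The full CRE (red) stands in the line of Dusp1 only, the adjoining CArG boxes (purple) in that of Dusp5 only, and the lines of Dusp6 and Dusp7 hold none of the motifs drawn.

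The cytoplasmic phosphatases of ERK are Dusp6, a classical feedback target of ERK, and Dusp7. Dusp6 had 33.3, 24.9, 23.9 and 31.3 CPM in WT against 39.4, 33.1, 30.3 and 29.1 CPM in Gsdmd-/- libraries. The genotypes overlapped, with WT 2 and WT 3 lowest. Its log2 fold change of 0.22 (standard error 0.139) was 0.03 without WT 2 and WT 3, 0.12 without Gsdmd-/- 1, and 0.15 and 0.16 without WT 3 or WT 2 alone, but 0.31 without WT 1 and 0.27 without WT 4 or Gsdmd-/- 4. The difference in Dusp6 was thus near 0 only when WT 2 and WT 3 were both set aside.

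Dusp7 had 43.8, 38.6, 36.6 and 39.1 CPM in WT against 47.9, 44.6, 44.97 and 48.1 CPM in Gsdmd-/- libraries. Every Gsdmd-/- library was higher than every WT library, but the gap between WT 1 and Gsdmd-/- 2 was small. Its mean was 39.5 ± 3.05 CPM in WT against 46.4 ± 1.85 CPM in Gsdmd-/- (SD, n = 4), and the log2 fold change was 0.23 (standard error 0.0834, 95% interval 0.05 to 0.42), and 0.16 (standard error 0.0989) without WT 2 and WT 3.

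The phosphatases directed at p38 and JNK are Dusp10 and Dusp16. Dusp10 was measured from few reads, 44, 48, 36 and 52 counts in WT and 42, 31, 18 and 23 counts in Gsdmd-/- libraries. This was 2.68, 2.93, 2.20 and 3.16 CPM in WT against 2.49, 1.83, 1.14 and 1.53 CPM in Gsdmd-/-. Gsdmd-/- 1 lay within the WT range and the other 3 below it. The log2 fold change was -0.64 (standard error 0.263, 95% interval -1.23 to -0.06), the least precise of the 10. Dusp16 had 14.9, 14.7, 13.7 and 16.2 CPM in WT against 13.1, 13.8, 11.3 and 14.3 CPM in Gsdmd-/- libraries. The groups overlapped, and Dusp16 differed by -0.18 on the log2 scale (standard error 0.113), and by -0.11 without Gsdmd-/- 3.

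The small atypical members are Dusp3, which acts on ERK and JNK, and Dusp22, known as a regulator of JNK and of T cell receptor signalling. Dusp3 had 268, 280, 268 and 233 CPM in WT against 252, 276, 266 and 294 CPM in Gsdmd-/- libraries. An antisense gene annotated over Dusp3, Gm20659, had 0 counts. The libraries were mixed in order, and the log2 fold change was 0.05 (standard error 0.0869), which was 0.12 without WT 2 and WT 3 and 0.0023 without WT 4. Dusp22 had 22.03, 17.7, 18.4 and 27.3 CPM in WT against 20.8, 21.5, 22.96 and 22.9 CPM in Gsdmd-/- libraries. The Gsdmd-/- values lay close together inside a wide WT range, in which WT 2 and WT 3 were lowest. The log2 fold change of Dusp22 was 0.05 (standard error 0.138) with all libraries, -0.16 without WT 2 and WT 3 and 0.19 without WT 4.

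**Figure D3:**
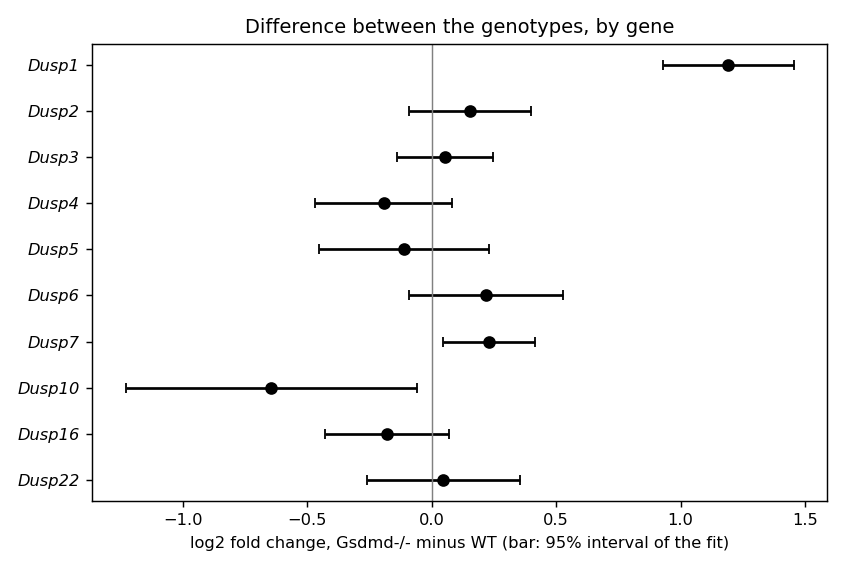
Log2 fold change (Gsdmd-/- minus WT, horizontal axis) of each phosphatase gene from the fit across all genes, with its 95% interval. Dusp1, on whose difference the family was chosen, is at 1.19 (0.93 to 1.46), and the other 9 genes lie between -0.64 and 0.23.

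Levels between the genes were compared per kilobase of annotated exon. In WT macrophages Dusp3 was highest at 56.0 CPM per kilobase, followed by Dusp4 (22.4), Dusp1 (16.5), Dusp7 (11.8), Dusp6 (9.05), Dusp2 (4.22), Dusp22 (4.18), Dusp5 (3.74), Dusp16 (1.91) and Dusp10 (0.90). The ranges of the WT libraries overlapped only between Dusp2 and Dusp22 and between Dusp22 and Dusp5 among neighbours in this order. In Gsdmd-/- macrophages Dusp1 was at 37.6 CPM per kilobase and stood second, above Dusp4 at 19.6, with the other 8 in the same order. When the longest coding transcript was used as the length, which is 1990 bases for Dusp1 in place of 3311, Dusp1 stood above Dusp4 in WT too (27.4 against 22.4 CPM per kilobase). The place of Dusp1 beside Dusp4 in WT therefore depends on the length chosen, and that of Dusp2 beside Dusp22 also changed.

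**Figure D4:**
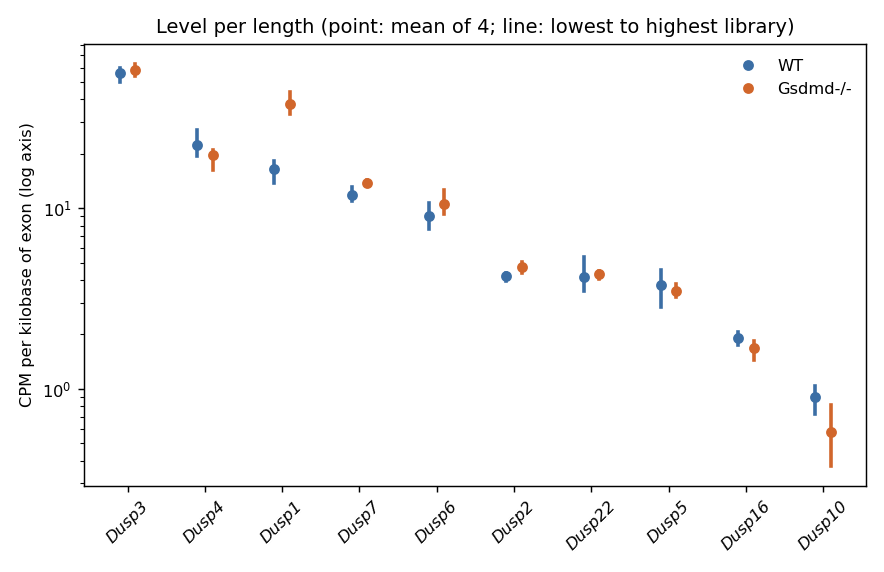
CPM per kilobase of annotated exon (log axis) of the 10 genes, ordered by their WT mean, in WT (blue) and Gsdmd-/- (orange) macrophages. Points are means of 4 libraries and lines run from the lowest to the highest library, and Dusp1 is at 16.5 in WT and 37.6 in Gsdmd-/- macrophages.

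The summed level of the 10 genes was 488 to 534 CPM in WT against 556 to 595 CPM in Gsdmd-/- libraries. Dusp1 made up 10.8 ± 1.29% of this sum in WT and 21.3 ± 2.39% in Gsdmd-/- macrophages (SD, n = 4). The share of Dusp3 was 52.2 ± 3.91% in WT and 46.6 ± 3.03% in Gsdmd-/-, and that of Dusp4 was 12.2 ± 1.33% and 9.15 ± 0.798% (SD, n = 4). In bulk RNA, fewer cells that express a gene and less of its RNA per cell cannot be told apart.

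Likeness to Dusp1 across the 8 libraries was measured over 12036 genes as the root mean square difference of standardised log2 CPM, which includes the difference between the genotypes. The closest genes were Pim1 (0.121), Ptp4a1 (0.133), Egr1 (0.173), Gm17494 (0.174) and Slc9a3r1 (0.197). Pim1, which encodes a serine/threonine kinase, averaged 217 CPM in WT against 312 CPM in Gsdmd-/- macrophages. Ptp4a1, itself a gene of the protein tyrosine phosphatase family, is listed under more than 1 identifier. The identifier meant here (ENSMUSG00000026064) had 0.777 and 2.30 CPM, and reads shared with the other were counted in a way that is not known. Among the phosphatase genes Dusp7 was nearest to Dusp1 (0.478, place 168), and Dusp10 was farthest (1.68).

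The other genes of the MAP kinase pathway were grouped in 7 lists of kinases, inhibitors and other phosphatases. Of their 97 genes 79 were tested, and 0 had an adjusted p under 0.05 with edgeR's quasi-likelihood test, while 11 had an unadjusted p under 0.05 (3 higher and 8 lower in Gsdmd-/-), beside 12.0% of all genes. Limma voom also called 0 of the 79, beside 0.333% of all genes, the exact test of edgeR called 3, beside 1.91% of all genes, and DESeq2 called 4, beside 2.26% of all genes. The other genes of the dual-specificity phosphatase family, 12 of 19 tested, had a median log2 fold change of 0.03, with 9 above 0, and none had an unadjusted p under 0.05. The lowest p-values among them were those of the slingshot phosphatases Ssh2 (log2 fold change -0.44) and Ssh3 (-0.11) and of Dusp12 (0.19), which were -0.72, -0.02 and 0.08 without WT 2 and WT 3.

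Of the MAP kinases themselves 9 of 14 were tested, with a median log2 fold change of -0.0088. Mapk8, which encodes JNK1, had 11.3 ± 0.9749 CPM in WT against 13.4 ± 1.39 CPM in Gsdmd-/- (SD, n = 4). Mapk6, which encodes the atypical kinase ERK3, had a log2 fold change of 0.31, which was 0.07 without WT 2 and WT 3. That of Mapk8 was 0.25 with and 0.16 without these libraries. Neither had an unadjusted p under 0.05. All 7 MAP kinase kinases were tested, with 6 above 0, and Map2k4, an activator of JNK and p38, had 84.6 ± 10.01 CPM in WT against 103 ± 6.69 CPM in Gsdmd-/- (SD, n = 4; edgeR's quasi-likelihood test, adjusted p = 0.286). Its log2 fold change was 0.29, and 0.17 without WT 2 and WT 3. Map2k6, an activator of p38, was under 1 CPM on average in both genotypes (log2 fold change 0.96, edgeR, adjusted p = 0.364), and Map2k5 had a log2 fold change of 0.08 (0.13 without WT 2 and WT 3).

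Of the MAP3K and RAF kinases 17 of 19 were tested, and 12 lay below 0 (median -0.12). Map3k6 (log2 fold change -0.37), Map3k11 (-0.21) and Map3k14 (-0.41), which encodes the NF-kB inducing kinase, did not overlap between the genotypes, with adjusted p-values of 0.234 to 0.344 in edgeR's quasi-likelihood test. Of all genes tested, 7.60% did not overlap. Without WT 2 and WT 3 the value of Map3k14 was -0.17. The inhibitors of RAS and ERK signalling, 15 of 16 tested, had 11 below 0 (median -0.16). Spred1, which keeps RAS inactive, had 129 ± 13.8 CPM in WT against 90.7 ± 9.69 CPM in Gsdmd-/- macrophages (SD, n = 4) without overlap (edgeR, adjusted p = 0.0944). It passed the threshold with all libraries in the exact test of edgeR and in DESeq2, and in the quasi-likelihood test without WT 2 and WT 3 (log2 fold change -0.64, edgeR, adjusted p = 0.0278). These were 3 of 17 alternative fits, and Spred1 passed in 0 of the 8 without 1 library (edgeR, adjusted p from 0.0798 to 0.335). Rasal3 (-0.20) and Spry3 (0.75) were the next genes by p-value.

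Among the other phosphatases of MAP kinases, 9 of 11 were tested and 5 lay below 0 (median -0.02). Ptpn7, a tyrosine phosphatase of ERK and p38 in blood cells, had 141 ± 6.97 CPM in WT against 104 ± 6.01 CPM in Gsdmd-/- macrophages (SD, n = 4) without overlap. Its log2 fold change of -0.44 (standard error 0.0771) missed the threshold with edgeR's quasi-likelihood test (adjusted p = 0.0515), but passed it with RLE scaling, with a filter of 10 counts in every library, with the exact test of edgeR and with DESeq2. These were 4 of 17 alternative fits. Ptpn7 missed it in all 8 fits without 1 library (edgeR, adjusted p from 0.0506 to 0.248) and without WT 2 and WT 3 (edgeR, adjusted p = 0.0844). Ppm1d and Ppm1k had log2 fold changes of 0.23 and 0.31 (0.31 and 0.57 without WT 2 and WT 3). Of the kinases downstream of ERK and p38, 10 of 11 were tested and 6 lay below 0 (median -0.09). Rps6ka2, a ribosomal S6 kinase activated by ERK, had 299 ± 66.3 CPM in WT against 492 ± 76.9 CPM in Gsdmd-/- (SD, n = 4; edgeR, adjusted p = 0.115), without overlap. Its log2 fold change was 0.72, and 0.50 without WT 2 and WT 3, and it passed the threshold with the exact test of edgeR, with DESeq2, without a filter on low counts and without WT 1. Rps6ka5 (-0.69) and Rps6ka1 (-0.25) lay below 0, and DESeq2 also called Rps6ka1.

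Immediate-early genes, which MAP kinases and serum response factor switch on without new protein synthesis, contained most of the list genes that passed the test. Of 26 genes 24 were tested, 16 lay above 0 (median 0.28), and 6 rose and 0 fell at an adjusted p under 0.05, where 0.139% of all genes rose. With the exact test of edgeR and with DESeq2, 9 rose and 2 fell. Of all genes 0.713% rose and 1.19% fell with the exact test, and 0.813% rose and 1.45% fell with DESeq2. The genes that fell with these tools were Jun, a subunit of AP-1, and Atf3, a stress-induced transcription factor, both named after their values were seen. Jun had 157, 234.8, 246 and 174 CPM in WT against 138, 126, 140.1 and 137 CPM in Gsdmd-/- libraries, with WT 2 and WT 3 highest and no overlap (log2 fold change -0.58, edgeR's quasi-likelihood test, adjusted p = 0.134), and its value was -0.29 without WT 2 and WT 3. Atf3 differed by -0.54 on the log2 scale, also without overlap (adjusted p = 0.165), and by -0.32 without these libraries. Without WT 2 and WT 3, Btg2 was called as well (log2 fold change 0.62, edgeR, adjusted p = 0.0278). Dusp1 belongs with such genes by its known induction and is not counted here. Zfp36, which encodes tristetraprolin, a protein that destabilises cytokine mRNA and depends on p38 signalling, rose from 99.2 ± 7.71 to 195 ± 11.7 CPM (SD, n = 4; log2 fold change 0.97, edgeR, adjusted p = 0.00082). Fos, a subunit of AP-1, had 48.3, 56.9, 60.2 and 42.8 CPM in WT against 133.7, 119, 104.5 and 98.5 CPM in Gsdmd-/- libraries (log2 fold change 1.13, edgeR, adjusted p = 0.0059). Every Gsdmd-/- library exceeded every WT library for Fos, as for Dusp1.

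Egr1, a transcription factor induced by ERK, had 9.01, 2.44, 2.38 and 5.36 CPM in WT against 75.5, 77.01, 38.6 and 40.5 CPM in Gsdmd-/- libraries (log2 fold change 3.59, edgeR, adjusted p = 0.0059). Gsdmd-/- 1 and 2 were the highest libraries for Dusp1, Fos and Egr1 alike. Ier2 rose from 17.9 ± 3.63 to 41.0 ± 5.32 CPM (SD, n = 4; edgeR, adjusted p = 0.0146), and passed the threshold in 5 of 8 fits that left out 1 library, not without WT 3, Gsdmd-/- 1 or Gsdmd-/- 3 (highest adjusted p = 0.0822). Klf2 (log2 fold change 0.91, adjusted p = 0.0302) and Myc (0.51, adjusted p = 0.0361) also rose, Klf2 from 8.31 to 15.6 CPM and Myc from 36.5 to 52.0 CPM. Of the 8 fits without 1 library, Klf2 passed only in those without WT 1 or WT 4 (highest adjusted p = 0.153) and Myc only in that without WT 4 (highest adjusted p = 0.164). Zfp36, Fos and Egr1 passed in all 8. Without WT 2 and WT 3, log2 fold changes were 0.88 for Zfp36, 1.32 for Fos, 3.01 for Egr1 and 1.00 for Ier2 (1.19 with all libraries). Those of Klf2 and Myc were 0.73 and 0.58, and all of these genes still passed.

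**Figure D5:**
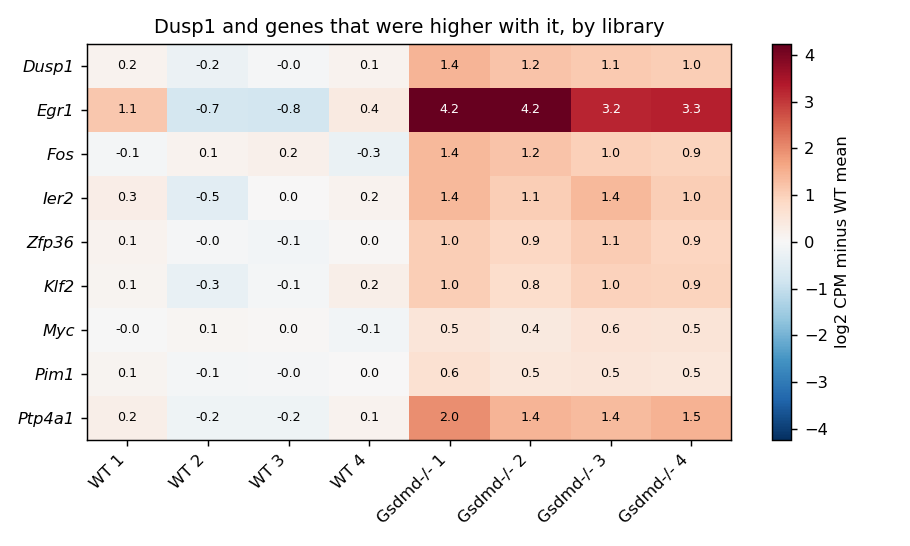
Log2 CPM minus the WT mean of the same gene (colour and printed value) for Dusp1, the 6 immediate-early genes that passed the test, and Pim1 and Ptp4a1, in each of the 8 libraries. All 9 genes are above 0 in the 4 Gsdmd-/- libraries, and the colour is deepest for Egr1. The genes were chosen as higher in Gsdmd-/- or as most like Dusp1, so this direction comes from the choice. Early genes that lay below 0 (8 of 24 tested) are not drawn.

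Since glucocorticoids also induce Dusp1, 16 other glucocorticoid-induced genes were examined, of which 12 were tested. Of these 4 lay above 0 and 8 below (median -0.18), and 1 rose at an adjusted p under 0.05, where 0.139% of all genes rose. An unadjusted p under 0.05 was found for 4 of the 12, where 12.0% of all genes had one. The gene that rose was Sgk1, a kinase of ion transport, with 330 ± 4.59 CPM in WT against 444 ± 22.97 CPM in Gsdmd-/- (SD, n = 4; log2 fold change 0.43, edgeR, adjusted p = 0.0468), and it passed in 0 of the 8 fits without 1 library (adjusted p from 0.0506 to 0.235). Without WT 2 and WT 3 Sgk1 missed the threshold (adjusted p = 0.0652) and Sesn1, which encodes a stress-induced sestrin, passed it (log2 fold change 0.60, adjusted p = 0.0272, edgeR), whereas with all libraries its value was 0.27 (adjusted p = 0.541). Tsc22d3, the gene of the glucocorticoid-induced leucine zipper, had 64.6 ± 17.4 CPM in WT against 47.4 ± 4.04 CPM in Gsdmd-/- (SD, n = 4; edgeR, adjusted p = 0.351), a log2 fold change of -0.45 that was -0.08 without WT 2 and WT 3, and the value of Cebpd was 0.30 on the log2 scale (edgeR, adjusted p = 0.374).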

How the data were processed

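Total RNA of 8 BMDM libraries (4 WT, 4 Gsdmd-/-) was sequenced from TruSeq libraries, and the authors deposited read counts per gene, not normalized. The submitters' processing notes name the build mm10, and the aligner and the counting tool are not given in the sources used here. All columns were matched to samples by label. Of 54532 genes, 54495 (99.9%) were found by identifier in GENCODE M21 (GRCm38), which gave positions and exon lengths.

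Counts were filtered with filterByExpr, scaled by TMM and compared by the quasi-likelihood test of edgeR 4.0.16 (R 4.3.3, two-sided, genotype as the only term, all 12911 genes adjusted by Benjamini-Hochberg). Standard errors were derived from the log2 fold change and its F statistic, and log2 CPM used a prior count of 2. Libraries of the same number were not paired. The test was tried on simulated data first.

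The 10 genes, the pathway and marker lists and the tests were chosen with earlier results of these data known. Every phosphatase gene and Gsdmd were named, with those genes of each list that had an adjusted p under 0.05 (at least 3 per list, filled by lowest p) and the 5 genes most like Dusp1 with a mean of at least 1 CPM. Limma voom (limma 3.58.1), DESeq2 1.42.0, edgeR's exact test, scaling by RLE or upper quartile, other filters, a replicate block and leaving out libraries were tried as alternatives. Protein sequences were not used here. A gene that the naming rule picked from the lists is not reported here.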

Additional observations from a re-analysis of the deposited data

Results flagged for a closer look

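In the Gsdmd-/- group, the level of Dusp4 in Gsdmd-/- 3 (44.3 CPM) was far from those of the other 3 libraries (55.9 to 57.5 CPM), with a gap to the nearest of 0.881 of the group's range by Dixon's criterion. Of the 20 groups examined (10 genes in 2 genotypes) this was the only 1 past that criterion, and chance puts about 1 in 20 groups past it.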

How the results depend on the processing

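Over 17 alternative fits the log2 fold change of Dusp1 was 1.05 to 1.25, a description only, since the genes were chosen with this contrast known. The direction held in all 17 for 8 of the 10 genes, and changed in 1 for Dusp5 (0.09 without WT 2 and WT 3) and in 3 for Dusp22 (whose values ran from -0.16 without WT 2 and WT 3 to 0.19 without WT 4). The median of the 10 genes lay between 0.02 and 0.08 when 1 library was left out.

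The number of genes called overall (45) depended on the setting, and was 246 with the exact test of edgeR, 292 with DESeq2, 109 without a filter on low counts, 161 without WT 2 and WT 3, 623 at the cutoff of the study, and 14 (without WT 3 or Gsdmd-/- 1, 2 or 3) to 84 (without WT 4) when 1 library was left out, with 21 without WT 2 and 22 without Gsdmd-/- 4. Of 114 list genes tested, 7 were called, 7 higher and 0 lower, beside 0.349% of all genes. With the exact test 15 were called (11 higher and 4 lower, beside 1.91% of all genes), and with DESeq2 16 (11 higher and 5 lower, beside 2.26%). Without a filter 11 of 133 were called, beside 0.43% of all genes. The count was 3 (without WT 3, Gsdmd-/- 1 or Gsdmd-/- 3) to 8 (without WT 4) when 1 library was left out, beside 0.106% to 0.64% of all genes. With the replicate block 25 genes and 4 list genes were called. Correlations of deviations between libraries of the same number were 0.03, 0.18, 0.04 and -0.20, and only WT 2 correlated best with the Gsdmd-/- library of its number. These 4 values cannot show if libraries of a number were prepared together, which the labels do not state. With the longest coding transcript as the length, 6 of the 10 genes kept their place in the order of levels. The cause of these changes was not tested. Of the 10 genes, depth limits Dusp10 most, at 18 to 52 counts per library.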
